A study of Homo sapiens with 61 samples.

Results

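Regions that carried H3K4me3 in ASH1L-/- cells and none, or almost none, in wild-type (WT) cells were collected from peak lists of U2OS cells, a human osteosarcoma line. All peaks of 18 H3K4me3 lists were merged where they overlapped or touched, which gave 282418 regions. A region was kept when at least 2 of the 3 lists of each ASH1L-/- group had a peak there and at most 1 of the 9 WT lists did. This left 736 regions. The groups were ASH1L-/- cells and WT cells, each left unirradiated or collected 1 h or 3 h after UV-C (20 J/m2), with 3 lists per group, each list from a library labelled as a biological replicate. XPC, the protein that senses helix-distorting DNA damage, was mapped in the same groups with 3 lists each, and 4 in WT cells without UV. Every ASH1L-/- sample carried CRISPR/Cas9 deletions in exon 2 and exons 11 and 12 of ASH1L and came from isolated colonies, so loss of ASH1L and differences between cell clones cannot be told apart here. WT cells were the line without these deletions.

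H3K4me3 is trimethylation of lysine 4 of histone H3. It forms broad blocks over the start sites of genes in use, where methyltransferase complexes are guided by unmethylated CpG-rich DNA, and it is weak or lacking at distal elements and in silent chromatin. ASH1L is a Trithorax-group histone methyltransferase named for a fly gene that keeps homeotic genes active.

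The 736 regions were chosen by the presence and absence of H3K4me3 peaks in these lists, so the H3K4me3 difference between genotypes is given here as a description, with no test. Of the regions, 405 had no peak in any WT list and 331 had a peak in 1 WT list. They were present in all 9 ASH1L-/- lists in 210 cases, in 8 lists in 232, in 7 lists in 183 and in 6 lists, the fewest the rule allows, in 111. A peak in all 9 ASH1L-/- lists and in no WT list was found at 122 regions. In 166 regions every ASH1L-/- list covered more bases than every WT list, as did 0.174% of all merged regions, a count that the rule itself largely sets. The mirrored rule, marked in WT and not in ASH1L-/- cells, gave 1567 regions, of which 121 had a peak in all 9 WT lists and in no ASH1L-/- list. The ASH1L-/- lists held a peak at 541 to 708 of the 736 regions and the WT lists at 18 to 56.

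The lists themselves differed in length. ASH1L-/- lists held 72984 to 126467 H3K4me3 peaks and WT lists 91762 to 142688, and the shortest list was replicate 1 of ASH1L-/- cells at 1 h. With 1 ASH1L-/- list left out, the rule asks for a peak in both remaining lists of that group, so fewer regions meet it. The number was then 421 without no UV replicate 3, 432 without no UV replicate 1 and at most 653, without 1 h replicate 1. With 1 WT list left out, fewer WT lists can hold a peak, and the number was 781 to 889. These values therefore do not measure the weight of single lists. Of 10 mesenchymal marker genes, 8 had an H3K4me3 peak within 2 kb of the start site in all 18 lists, and 0 of 5 blood markers did. All 5 neuronal markers and 2 of 6 epithelial markers had such a peak too. None of ASH1L, XPC, SSRP1 and SUPT16H, the last 2 coding for the subunits of the histone chaperone FACT, had one of the 736 regions within 2 kb of its start site.

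Most of the 736 regions were short and weakly enriched. Their covered length, the number of bases under called peaks, had a median of 392 bp over the 9 ASH1L-/- lists (interquartile range 296 to 534 bp), against 1196 bp for the 40691 regions robust in all 6 groups. Their fold enrichment over input had a median of 3.27 against 4.39. The mirrored regions had a median of 437 bp in the 9 WT lists and a fold enrichment of 3.11. At the limit of the rule on WT lists the values changed little. Regions with 1 WT list had a median of 377 bp and a fold enrichment of 3.16. The 416 regions just outside, with 2 WT lists, had 361 bp and 3.11. At the limit on ASH1L-/- groups the values were lower. A further 2164 regions were robust in only 2 of the 3 ASH1L-/- groups. Their median covered length was 195 bp and their fold enrichment 2.93, against 392 bp and 3.27 for the 736. Lists without a peak lower this length, and these regions need a peak in fewer lists. Their merged width had a median of 699.5 bp, against 897.5 bp for the 736. The plot of lengths by class shows the 736 regions as a curve that lies left of that for shared regions over its whole length.

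**Figure D1:**
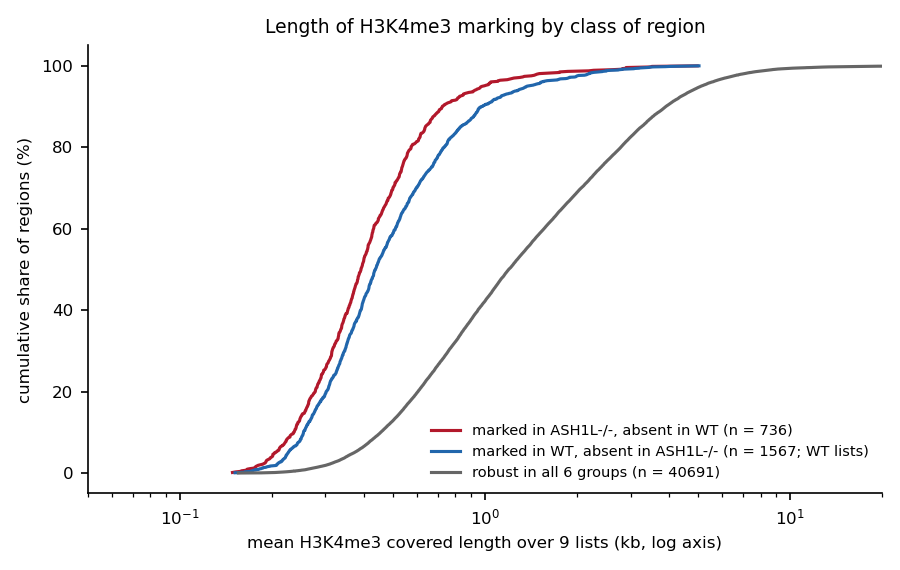
Cumulative share of regions (%) by mean H3K4me3 covered length over the 9 lists of a genotype (kb, log axis) for the 736 regions marked in ASH1L-/- and absent in WT (ASH1L-/- lists), the 1567 mirrored regions (WT lists) and the 40691 regions robust in all 6 groups (ASH1L-/- lists). The medians are 392 bp, 437 bp and 1196 bp.

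A small number of regions stood out from this majority by length and enrichment, and they are described first. The sequences at the summits of 4 of them are shown to let the CpG content be seen, because H3K4me3 blocks of this length commonly sit on CpG-rich DNA. Each is 300 bases of the plus strand of hg38, 5′ to 3′, around the summit of the strongest peak and free of annotated exons of protein-coding and long noncoding genes. CpG dinucleotides are in capitals.
KCNH1, chr1:211133484-211133783: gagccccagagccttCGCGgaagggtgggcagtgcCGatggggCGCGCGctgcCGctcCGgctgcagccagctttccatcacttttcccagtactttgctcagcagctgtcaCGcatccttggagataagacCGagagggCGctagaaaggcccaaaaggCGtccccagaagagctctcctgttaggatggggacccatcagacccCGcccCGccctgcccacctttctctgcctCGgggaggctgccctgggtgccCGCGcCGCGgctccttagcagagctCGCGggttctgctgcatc
HOXC5, chr12:54033861-54034160: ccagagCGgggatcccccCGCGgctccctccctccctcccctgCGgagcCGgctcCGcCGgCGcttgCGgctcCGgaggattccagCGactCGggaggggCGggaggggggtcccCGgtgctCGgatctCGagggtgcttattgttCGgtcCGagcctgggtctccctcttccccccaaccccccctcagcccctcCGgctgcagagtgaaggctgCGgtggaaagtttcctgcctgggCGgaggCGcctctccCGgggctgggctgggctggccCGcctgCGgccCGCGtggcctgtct
PYDC2-AS1, chr3:191425678-191425977: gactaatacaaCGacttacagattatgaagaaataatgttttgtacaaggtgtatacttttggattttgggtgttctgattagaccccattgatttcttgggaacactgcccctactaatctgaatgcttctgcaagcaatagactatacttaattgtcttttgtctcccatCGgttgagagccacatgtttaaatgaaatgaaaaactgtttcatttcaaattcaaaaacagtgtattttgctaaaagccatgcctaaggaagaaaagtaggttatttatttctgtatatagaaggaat
near SCIN, chr7:12554945-12555244: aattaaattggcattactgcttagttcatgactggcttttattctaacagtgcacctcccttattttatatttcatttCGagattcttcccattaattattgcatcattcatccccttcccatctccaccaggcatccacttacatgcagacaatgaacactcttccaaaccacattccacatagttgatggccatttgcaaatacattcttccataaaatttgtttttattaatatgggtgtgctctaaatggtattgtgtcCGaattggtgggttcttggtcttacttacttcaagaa
The first pair are CpG-rich, with 21 CpGs at KCNH1 and 27 at HOXC5. The other windows hold 2 CpGs at PYDC2-AS1 and 2 near SCIN. These 4 examples do not show how common each kind is, and the shares are given further on.

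The longest region lay at chr1:221964832-221970705 over the start of LINC02474, a long noncoding RNA gene in a gene-poor stretch whose nearest protein-coding start, that of DUSP10, was 223 kb away. Its covered length was 5.15, 4.53 and 4.98 kb in ASH1L-/- cells without UV, 5.69, 5.38 and 4.85 kb at 1 h and 4.65, 3.97 and 5.46 kb at 3 h, and no WT list had a peak. Fold enrichment there ranged over 6.81 to 13.7 in the 9 ASH1L-/- lists. A second region began a short way on, at chr1:221970828-221973242, with 1.74 to 2.41 kb in ASH1L-/- lists and none in WT lists, so the marked block spanned both. Both regions were thus marked in every ASH1L-/- list and in no WT list.

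The highest fold enrichment, with a mean of 10.8, was at the start of PYDC2-AS1, a long noncoding gene named as antisense to the pyrin-domain gene PYDC2 (chr3:191424949-191429444). ASH1L-/- lists covered 3.19, 2.97 and 3.01 kb without UV, 3.41, 3.83 and 3.53 kb at 1 h and 3.53, 3.99 and 3.85 kb at 3 h. WT no UV replicate 3 covered 0.191 kb and the other WT lists had no peak. The summit window is AT-rich, with a GC content of 33.7%.

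Protein-coding promoters, defined as regions within 2 kb of the main start site, made up 37 of the 736. SOSTDC1, which codes for a secreted antagonist of BMP and Wnt signals, had the longest (chr7:16462517-16466578). It covered 2.72, 2.66 and 1.21 kb in ASH1L-/- cells without UV, 3.86, 3.64 and 2.18 kb at 1 h and 3.42, 2.92 and 2.84 kb at 3 h, against a peak of 0.265 kb in WT 1 h replicate 1 and none in the other WT lists. LRRC17, which codes for a secreted leucine-rich repeat protein that restrains osteoclast formation in mice, covered 3.17, 1.99 and 3.2 kb without UV, 3.26, 3.08 and 3.23 kb at 1 h and 2.57, 1.7 and 3.24 kb at 3 h in ASH1L-/- lists (chr7:102912370-102915794). No WT list had a peak at LRRC17, and its mean fold enrichment in ASH1L-/- lists was 8.61.

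The promoter of KCNH1, a voltage-gated potassium channel gene, covered 2.5, 2.47 and 1.75 kb in ASH1L-/- cells without UV, 2.04, 2.82 and 2.11 kb at 1 h and 2.42, 2.10 and 2.23 kb at 3 h (chr1:211131313-211134165). TRAK1, which codes for an adaptor that ties mitochondria to motor proteins, covered 1.58 to 2.19 kb over the 9 ASH1L-/- lists with a mean of 1.87 kb (chr3:42090448-42092912). No WT list had a peak at KCNH1, and WT 3 h replicate 2 had 0.217 kb at TRAK1. Both therefore kept a block of similar length at all times in the knockout line.

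Adjacent regions covered the promoters of H2BC8 and H2AC8, which code for replication-dependent histones H2B and H2A in the large histone gene cluster (chr6:26214273-26216733 and chr6:26216891-26218826). H2BC8 covered 0.978, 1.76 and 1.11 kb in ASH1L-/- cells without UV, 1.34, 2.18 and 1.84 kb at 1 h and 1.61, 1.84 and 1.97 kb at 3 h, with no peak in any WT list. H2AC8 covered 0.734 to 1.93 kb over the ASH1L-/- lists, again with none in WT lists. Another histone gene of the cluster, H2BC10, had a shorter region 0.820 kb from its start site, with 0.250 to 0.673 kb in ASH1L-/- lists and 0.233 kb in WT 3 h replicate 3. Histone genes of this cluster resemble one another closely, and reads of low mapping quality had been removed, so the covered lengths there are uncertain.

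Homeotic genes, the classical targets of Trithorax-group proteins, had 3 regions within 50 kb of a HOX start site. The share of all merged regions within that distance is not given here, so the count cannot be set against it. The region at HOXC5 also spanned the microRNA gene MIR615 and lay within the HOXC4 gene body (chr12:54032756-54034408). It was among the least variable of the long regions, with 1.40, 1.42 and 1.34 kb in ASH1L-/- cells without UV, 1.65, 1.54 and 1.57 kb at 1 h and 1.43, 1.48 and 1.38 kb at 3 h, and no peak in WT lists. The other HOX regions were in the HOXB cluster, in HOXB3 beside the start of HOXB-AS2 (chr17:48557276-48558609, mean 0.507 ± 0.261 kb) and near HOXB1 (chr17:48492268-48493197, 0.487 ± 0.296 kb; SD, n = 9 ASH1L-/- lists each). Neither had a peak in a WT list.

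**Figure D2:**
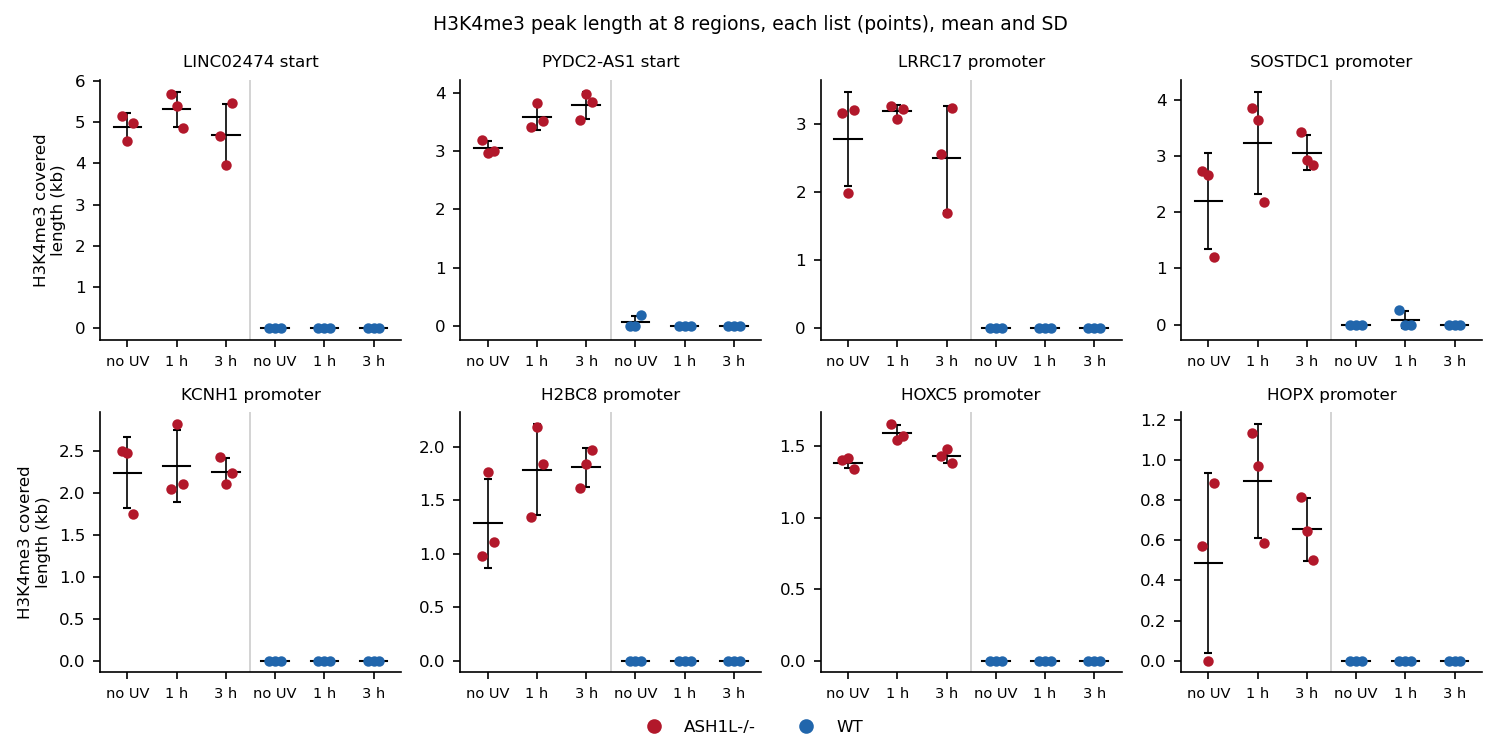
H3K4me3 covered length (kb) at 8 regions in each list. Points are lists, with 3 per group, in red for ASH1L-/- and blue for WT cells without UV, 1 h and 3 h after UV-C, and bars are the mean and SD. WT lists lie at 0 except for 0.191 kb at PYDC2-AS1 and 0.265 kb at SOSTDC1, while ASH1L-/- lists lie above them everywhere except for 1 list at 0 at HOPX.

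Among the other promoters, that of NCKAP5 combined a short length with a high fold enrichment, at 0.978 ± 0.157 kb and 7.32 over input (chr2:133567671-133568970). ZNF233, a zinc finger gene, covered 0.962 ± 0.248 kb, and RUFY3, which takes part in neuronal polarity, covered 0.858 ± 0.124 kb. BCHE, which codes for butyrylcholinesterase, covered 0.799 ± 0.428 kb, VIT, which codes for a matrix protein, 0.687 ± 0.261 kb, and HOPX, which codes for a homeodomain protein that does not bind DNA, 0.679 ± 0.330 kb (SD, n = 9 ASH1L-/- lists for each). One list of ASH1L-/- cells without UV, replicate 2, had no peak at BCHE or HOPX.

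The next promoters by length were those of ENSG00000288658, HOATZ, EVI2A, BRINP3, SHC3, OR11H4 and NCALD, with mean covered lengths between 0.557 and 0.636 kb. SHC3 codes for a signalling adaptor found mainly in neurons, OR11H4 for an olfactory receptor and NCALD for a neuronal calcium sensor. EVI2A lies within an intron of NF1 on the opposite strand. Of these genes, HOATZ, BRINP3 and ENSG00000288658 had no peak in any WT list. EVI2A was the exception in strength on the WT side, since WT 1 h replicate 2 covered 0.764 kb there.

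The long regions away from protein-coding promoters lay in introns and gene deserts. One in PKIB, which codes for an inhibitor of protein kinase A, covered 2.79 to 4.62 kb in ASH1L-/- lists and none in WT lists (chr6:122481535-122486284). UVRAG, an autophagy gene first found through complementation of UV sensitivity, held a region of 1.91 to 3.89 kb in ASH1L-/- lists and 0.305 kb in WT 3 h replicate 3 (chr11:75979358-75983371). Both spanned the start of an annotated alternative transcript of their gene.

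A region in NRCAM, a neuronal cell adhesion gene, covered 1.24 to 2.33 kb in ASH1L-/- lists (chr7:108253849-108256193), and one in ETV6, which codes for a repressor of the ETS family, 1.26 to 1.71 kb (chr12:11812029-11814036). Neither spanned an annotated start. NRCAM had no WT peak, and WT 1 h replicate 1 had 0.240 kb in ETV6. Intergenic examples were a region 130 kb from TLL1, a gene for a procollagen-processing protease, with 2.22 to 3.24 kb (chr4:165739697-165743153), and one more than 1 Mb from BRINP3, with 1.07 to 2.59 kb (chr1:189149223-189152344). The first had 0.344 kb in WT 3 h replicate 3 and the second had no WT peak. The remaining regions among the 20 longest lay in MARK2, at the start of ENSG00000247134 and near FOXL1, with means of 1.45, 1.42 and 1.34 kb in ASH1L-/- lists and 1 WT list with a peak of 0.220 to 0.359 kb each.

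By position the 736 regions resembled the whole set of merged regions more than they did the shared ones. Promoters held 5.03% of them, gene bodies 43.1% and intergenic DNA 51.9%, against 5.70%, 37.9% and 56.4% of all merged regions. Of regions robust in all 6 groups, 30.9% were at promoters. The start of any annotated transcript, noncoding ones included, lay inside 100 of the 736 regions (13.6%), against 8.06% of all merged regions and 39.9% of the shared ones. This share depended on length: 13 of the 20 longest regions spanned an annotated start, but 68 of the 636 regions after the first 100 did (10.7%). Longer merged regions can span a start more easily, and a comparison at equal length was not made.

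Peaks that overlapped or touched were merged before the rule was applied. A peak that extended a block with peaks in at least 2 WT lists could therefore not be a member, and the distances to such blocks are partly set by the rule. The nearest region with a peak in at least 2 WT lists was at a median distance of 7.78 kb, against 2.34 kb for all merged regions. Of the 736, 116 lay within 1 kb of one (15.8%, against 37.5% of all merged regions) and 286 within 5 kb (38.9%, against 62.3%). Of the 736, 89 (12.1%) lay within 100 kb of another of them. For the 1567 mirrored regions, a larger set in which neighbours are closer by number alone, the share was 51.6%.

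The 12 gene lists hold genes of development, cell types, imprinting, repair and histone methylation. No gene of the nucleotide excision repair list (38 genes), of the H3K4 and H3K36 methylation and FACT list (37 genes), of the cancer-testis list (55 genes) or of the blood list (45 genes) had a region at its promoter or in its body. For all 19970 protein-coding genes the share was 1.80% with a region at the promoter or in the body and 0.195% at the promoter. Neuronal and synaptic genes had the highest share, 11 of 69 (15.9%), with SLC17A6, a vesicular glutamate transporter gene, at the promoter, and SYT1, a gene of synaptic vesicle release, among those in the body. These genes are long, with a median of 373 kb against 27.5 kb for all genes. Per 1000 merged regions within the genes, the neuronal list had 2.64 of the 736 and all protein-coding genes had 2.87. The same value was 10.8 for the HOX and homeobox list, 5.20 for the other developmental transcription factors, and 6.62 and 6.58 for the epithelial and interferon lists, but these rest on 2, 5, 1 and 1 regions.

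Of the other developmental transcription factor genes, 4 of 64 (6.25%) held a region in the body, among them GLI3, a Hedgehog effector, and RUNX2, the regulator of osteoblast identity. Of the 72 genes on the HOX and homeobox list, 2 did (2.78%), HOXB3 and HOXC4; HOXC5 was not on that list. CDH9, a cadherin gene, and ESRP1, an epithelial splicing factor gene, each had a region at the promoter, as the only members of the cadherin and the epithelial list. ALPL, IFIT3 and ZIM2 were the only genes with a region in the mesenchymal, interferon and imprinted lists. The ESRP1 promoter also had other H3K4me3 peaks in all 18 lists, so the region there added to a promoter that was marked in both genotypes.

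The summit windows were lower in GC content than all merged regions but not in CpGs. The median GC content of the 300 bp windows was 44.3%, against 46.7% for all merged regions and 53.3% for shared regions. The median ratio of observed to expected CpGs was 0.287, against 0.174 and 0.341, and the median number of CpGs was 4, against 3 and 6. A window was counted as CpG-rich when its GC content was over 50% and that ratio over 0.6. This held for 30 of the 736 (4.08%), against 5.66% of all merged regions and 30.4% of the shared ones. It held for 3 of the 20 longest regions, for 10 of the 100 longest and for 20 of the 636 after these. KCNH1 and HOXC5, shown above, are among the 30, and the windows at PYDC2-AS1 and near SCIN are not.

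The letters TATAAA, on either strand, were found in 24.0% of the windows, against 17.4% for all merged regions and 10.7% for shared ones. The AP-1 letters TGANTCA, where N is any base, were found in 9.38% against 9.78% of all merged regions, and the RUNX letters TGTGGTT in 7.07% against 5.99%. The SP/KLF letters GGGCGG were found in 6.52% against 8.60%. Such matches describe the letters alone and say nothing of bound factors. GC content differed between these sets as given above, and its part in the shares was not tested.

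The regions were not spread evenly over the chromosomes. Per 1000 merged regions there were 2.61 over all chromosomes, with the highest values on chromosome 4 (5.22, 76 regions), chromosome 7 (4.56, 76 regions) and chromosome 13 (4.31, 19 regions) and the lowest on chromosome 14 (0.782, 8 regions). The mirrored regions had another pattern, with 18.8 per 1000 on chromosome 13 and 18.6 on chromosome 14. Chromosome 13 was thus high on both counts and chromosome 14 on the mirrored count alone.

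**Figure D3:**
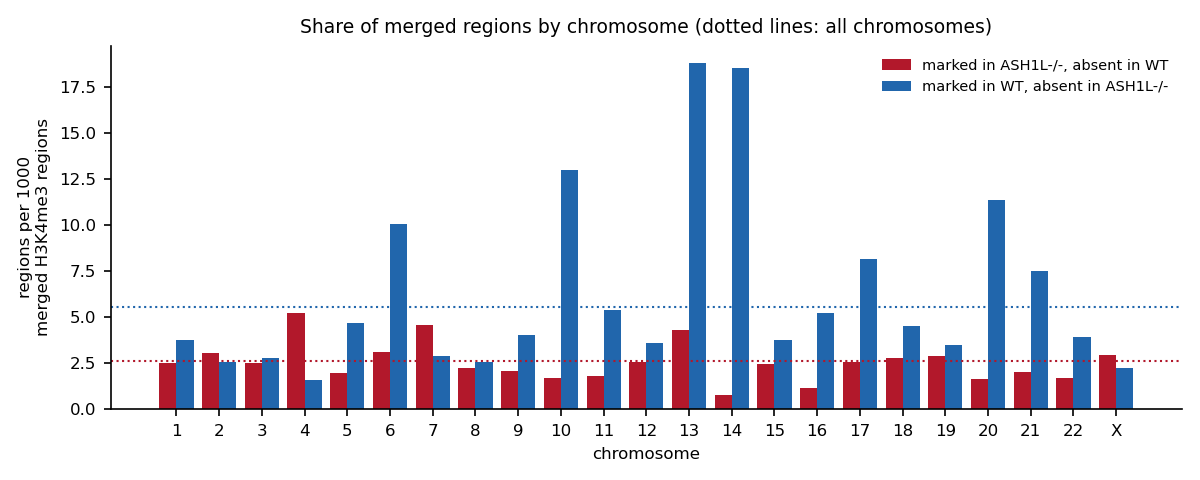
Regions per 1000 merged H3K4me3 regions on each chromosome, for the 736 regions marked in ASH1L-/- and absent in WT (red) and the 1567 mirrored regions (blue), with dotted lines at the values for all chromosomes (2.61 and 5.55). Red bars are highest on chromosomes 4, 7 and 13, and blue bars on chromosomes 13 and 14.

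To see whether whole segments differed between the lines, the length covered by XPC peaks in the 1 Mb around each region was compared, as log2 of ASH1L-/- over WT after scaling to each list's total. This value follows many short XPC peaks and moves with the amount of DNA, with XPC binding over a segment, or with both, which cannot be told apart here. Its median was 0.08 over the 736 regions and 0.00 over all merged regions. Values above 0.5 were found around 146 of the 736 (19.8%), against 10.5% of all merged regions, and values below -0.5 around 59 (8.02%), against 13.7%. Of the mirrored regions, 33.7% lay below -0.5. The other 531 regions, 17 of the 20 longest among them, had values between these limits, which were chosen after the data were seen. Whether the amount of DNA differed around them was not tested.

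The stretches of 5 Mb with most of the regions differed in XPC coverage. On chromosome 4 between 55 and 60 Mb there were 12 of the 736 regions among 546 merged regions, with a median 1 Mb value of 0.84, and none of the mirrored kind. They included HOPX and otherwise lay mainly between genes. The closest protein-coding starts, at any distance, included those of IGFBP7, ADGRL3 and KDR. On chromosome 7 between 120 and 125 Mb there were 8 among 250, with a median 1 Mb value of 2.57, in CPED1, CADPS2, KCND2 and AASS and between genes.

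Chromosome 2 between 35 and 40 Mb and chromosome 19 between 50 and 55 Mb also held 8 each, among 645 and 1181 merged regions, with median 1 Mb values of 0.36 and 1.15. The chromosome 19 stretch is a cluster of zinc finger genes, and ZNF83, ZNF160, ZNF415, ZNF701 and ZNF888 held regions there, with means of 0.285 to 0.955 kb. The opposite case was rarer: 15 regions (2.04%, against 4.86% of all merged regions and 23.8% of the mirrored ones) lay in segments with 1 Mb values under -1.5. Of these, 6 were on chromosome 6 and 6 on chromosome 7, and the long regions at SOSTDC1 and near SCIN were among them, with 1 Mb values of -1.7 and -1.78.

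The response of the regions to UV in ASH1L-/- cells did not enter the rule as a contrast, although the rule asked for a peak before and after irradiation, so regions that are won or lost entirely could not be members. Over the 736 regions the mean covered length was 0.373 ± 0.0402 kb without UV, 0.535 ± 0.0929 kb at 1 h and 0.541 ± 0.0901 kb at 3 h in ASH1L-/- lists (SD, n = 3 lists each). In WT lists it was 0.0111 ± 0.00586, 0.0173 ± 0.00640 and 0.0177 ± 0.00811 kb. The difference was tested per region with limma on the 9 ASH1L-/- lists, fitted over all 89252 regions with a peak in at least 3 of them, all 736 included.

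At 1 h, 2 of the 736 regions were called higher than without UV (0.272%) and none lower, against 0.474% higher and 0.332% lower, or 0.806% in either direction, of all regions tested (adjusted p below 0.05, limma). At 3 h, 4 were called higher (0.543%) and none lower, against 1.53% and 0.776%, or 2.3% in either direction. Regions gained or lost altogether are among all regions tested and not among the 736, and a difference between these shares was not tested. The median change was 0.140 kb at 1 h and 0.134 kb at 3 h over the 736, against 0.124 kb at both times over all regions tested, and 586 and 576 of the 736 had positive values (79.6% and 78.3%, against 69.2% and 68.1%). Unadjusted p-values were under 0.05 for 58 and 85 of the 736 (7.88% and 11.5%), against 17.7% and 20.2% of all regions tested. Lists of irradiated ASH1L-/- cells covered 79.4 to 108 Mb in all and those of unirradiated ones 74.3 to 91.7 Mb, and the part of this in the changes was not tested beyond the scaled fit, in which the median changes were 0.0884 and 0.0846 kb over the 736, against 0.0302 and 0.0211 kb over all regions tested.

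The strongest response was in an intron of ZNF440, a zinc finger gene (chr19:11819224-11822032). ASH1L-/- lists covered 0.453, 0.205 and 0.215 kb without UV, 1.22, 1.54 and 1.12 kb at 1 h and 2.18, 2.0 and 2.06 kb at 3 h, with no overlap between the times, and no WT list had a peak. The change from no UV was 1.00 ± 0.166 kb at 1 h and 1.79 ± 0.166 kb at 3 h (± SE, adjusted p = 0.0418 and 0.00644, limma). The 3 h call was kept under all 13 alternatives run and the 1 h call under 2 of them.

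A region near SCIN, a gene for an actin-severing protein, covered 2.18, 2.19 and 2.11 kb in ASH1L-/- cells without UV, 3.25, 3.36 and 2.93 kb at 1 h and 3.74, 3.2 and 3.21 kb at 3 h (chr7:12551818-12555790), with no peak in WT lists. All irradiated lists lay above all unirradiated ones. The change was 1.02 ± 0.182 kb at 1 h and 1.22 ± 0.182 kb at 3 h (adjusted p = 0.0468 and 0.0183, limma). The 1 h call was kept under 2 of 13 alternatives and the 3 h call under 8.

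Called at 3 h and not at 1 h were a region near the start of the noncoding gene ENSG00000259223 and the promoter of EVI2A called. ENSG00000259223 covered 0.197, 0 and 0.257 kb without UV, 0, 0.267 and 0.821 kb at 1 h and 1.02, 1.47 and 1.12 kb at 3 h in ASH1L-/- lists (chr15:60114669-60116335). EVI2A covered 0, 0.301 and 0.195 kb without UV, 0.560, 0.919 and 0.792 kb at 1 h and 0.934, 1.13 and 0.781 kb at 3 h (chr17:31320513-31321721). The 3 h changes were 1.05 ± 0.224 kb and 0.78 ± 0.166 kb (adjusted p = 0.0480 and 0.0474, limma), kept under 3 and 2 of 13 alternatives. A difference between 1 h and 3 h was not tested.

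**Figure D4:**
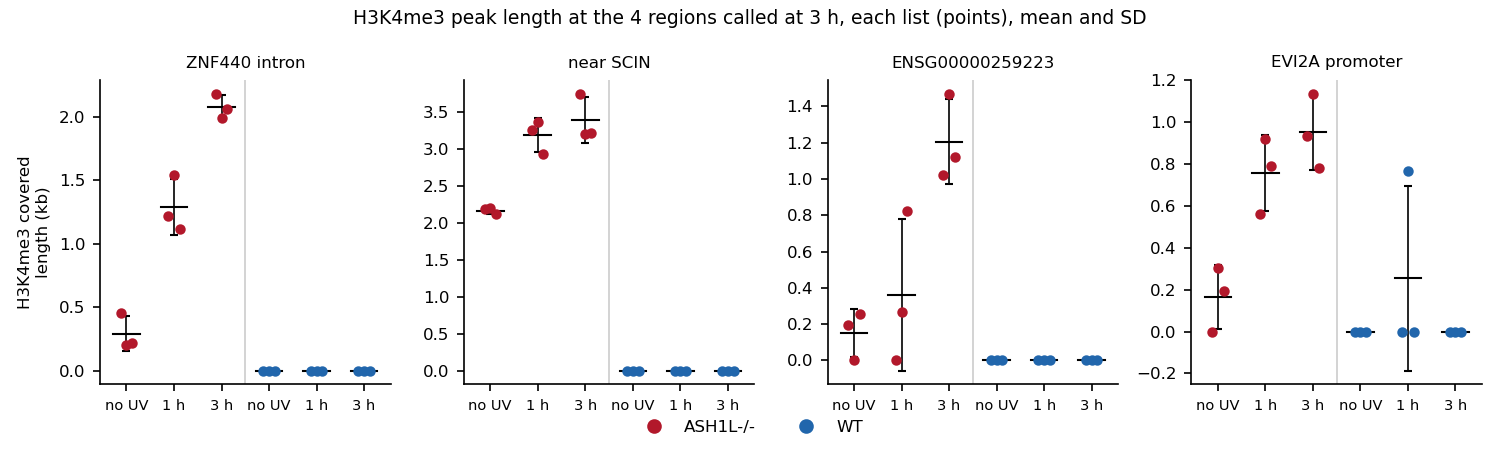
H3K4me3 covered length (kb) at the 4 regions called higher at 3 h than without UV in ASH1L-/- cells. Points are lists, with 3 per group, in red for ASH1L-/- and blue for WT cells without UV, 1 h and 3 h after UV-C, and bars are the mean and SD. In the ZNF440 intron the ASH1L-/- lists lie at 0.205 to 0.453 kb without UV and at 2.0 to 2.18 kb at 3 h, and the 1 WT point above 0 is that of 0.764 kb at EVI2A.

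These calls were few and, apart from the 3 h call in ZNF440, depended on single lists. With any 1 ASH1L-/- list left out, 0 or 1 region was called at 1 h. At 3 h, 1 was called when any 1 of the no UV replicates or 3 h replicate 1 was left out, and 2 without 1 h replicate 2. The number was 3 without 3 h replicate 3, 4 without 3 h replicate 2 or without 1 h replicate 3, and 7 without 1 h replicate 1.

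XPC was not used by the rule, so it could be compared between the genotypes at the same places. The length covered by XPC peaks in the 10 kb around each region was tested with limma over 279915 windows covered in at least 3 of the 19 lists, 725 of the 736 among them. Where groups share lists, as the ASH1L-/- no UV lists do in the UV contrasts, each contrast is given by its own values.

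The genotypes were compared as the mean of the 3 ASH1L-/- groups minus the mean of the 3 WT groups. Unirradiated and irradiated cells were thus averaged, and a difference without UV is not separated from one after UV. Of the 725 regions, 34 (4.69%) had more XPC coverage in ASH1L-/- than in WT cells and 7 (0.966%) had less, against 1.38% and 2.77%, or 4.15% in either direction, of all windows tested. The median difference was 0.14 kb over the 725 and -0.01 kb over all windows. Most of the regions with more XPC coverage, 24 of the 34, lay on chromosome 7 between 120999783 and 158782695, where 36 of the 736 regions lie. This span runs from the first to the last of the 24. The share of all windows called there is not given here, so the count cannot be set against it. Of all windows with 1 Mb values over 0.5, 12.4% were called higher. The 1 Mb values of these 24 were 1.89 to 2.62, so the length covered by XPC peaks was also higher in their surroundings, in the same lists. Whether this came from the amount of DNA or from XPC binding cannot be told apart here.

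The largest difference was near AKR1B1, an aldose reductase gene, at chr7:134420281-134420690. XPC covered 1.98 to 7.79 kb with a median of 4.66 kb in the 9 ASH1L-/- lists, against 0 to 1.58 kb with a median of 0.607 kb in the 10 WT lists, with no overlap. The difference was 4.12 ± 0.70 kb (adjusted p = 0.000497, limma). In GOLM2, a Golgi membrane protein gene on chromosome 15, it was 4.10 ± 0.772 kb (adjusted p = 0.00119), with 3.2 to 8.83 kb in ASH1L-/- lists and 0.670 to 3.33 kb in WT lists and a 1 Mb value of 1.17.

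The next 3 differences, of 3.47 ± 0.758 kb 1.94 kb from the start of the noncoding gene ENSG00000272915, 3.14 ± 0.603 kb in PTPRN2 and 3.09 ± 0.675 kb in ESYT2, were all on chromosome 7 (adjusted p = 0.00406, 0.00141 and 0.00407, limma). PTPRN2 codes for a phosphatase-like protein of secretory granules and ESYT2 for a lipid transfer protein. Their 1 Mb values were 2.21, 1.92 and 1.97, and each of these calls was kept under 23 of 24 alternatives.

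All 7 regions with less XPC lay in segments with 1 Mb values from -3.15 to -1.78. At the promoter of TAGAP, a gene for a GTPase-activating protein of T cells, XPC covered 0 to 1.43 kb (median 0.155 kb) in ASH1L-/- lists, against 0 to 6.53 kb (median 1.65 kb) in WT lists, with overlap. The difference was -1.93 ± 0.548 kb (adjusted p = 0.0299, limma). Near SCIN, where H3K4me3 lengthened after UV, it was -1.67 ± 0.505 kb (adjusted p = 0.0452), in PRKCH, a protein kinase C gene, -1.65 ± 0.395 kb (0.00875), in NHSL1 -1.64 ± 0.405 kb (0.0111) and near TUBGCP3 -1.48 ± 0.437 kb (0.0388). The other 2 were in RBAK-RBAKDN and PHACTR2. The call near SCIN was kept under 8 of 24 alternatives, that near TUBGCP3 under 11 of 24 and that at TAGAP under 14 of 25, and most single lists left out ended the first. The calls in PRKCH and NHSL1 were kept under 23 of 25 and 23 of 24. At these places H3K4me3 peaks were called in ASH1L-/- cells and in at most 1 WT list, while XPC coverage of the segment was lower in ASH1L-/- cells.

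Of the 523 tested regions with 1 Mb values between -0.5 and 0.5, 3 had more XPC in ASH1L-/- cells and none less, against 0.0911% and 0.0302% of all windows in such segments. Above 0.5, 31 of 146 had more, against 12.4% of all windows there, and below -0.5, 7 of 56 had less and none more, against 20.1% and 0.00261%. This split was chosen after the data were seen, and the 1 Mb value comes from the same XPC lists. The 3 regions were both HOXB regions and a region 13.1 kb from C10orf120.

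Near HOXB1, XPC covered 2.15 to 8.52 kb (median 5.04 kb) in ASH1L-/- lists, against 0 to 6.66 kb (median 1.69 kb) in WT lists, a difference of 2.98 ± 0.815 kb (adjusted p = 0.0235, limma). In HOXB3 at HOXB-AS2 it covered 1.54 to 7.84 kb (median 4.64 kb), against 0.292 to 3.37 kb (median 1.72 kb), a difference of 2.70 ± 0.769 kb (adjusted p = 0.0309). Near C10orf120 (chr10:122712903-122713949) it covered 2.11 to 6.45 kb (median 3.36 kb), against 0 to 4.0 kb (median 0.908 kb), a difference of 2.76 ± 0.70 kb (adjusted p = 0.0137). The genotypes overlapped in all 3, and their 1 Mb values were 0.24, 0.23 and -0.06. In windows of 2 kb the differences were 0.19 kb near HOXB1, 0.71 kb at HOXB-AS2 and 0.53 kb near C10orf120, and none was called. The call at HOXB-AS2 was kept under 14 of 24 alternatives and lost without any of 8 single lists, that near HOXB1 under 20 of 25 and that near C10orf120 under 23 of 24. The 8 lists were ASH1L-/- no UV replicates 1 and 2, 1 h replicate 3 and 3 h replicate 2, and WT 1 h replicates 1 and 3 and 3 h replicates 2 and 3. The HOXB regions lie in 1 gene cluster and share a segment, so they are not independent places.

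**Figure D5:**
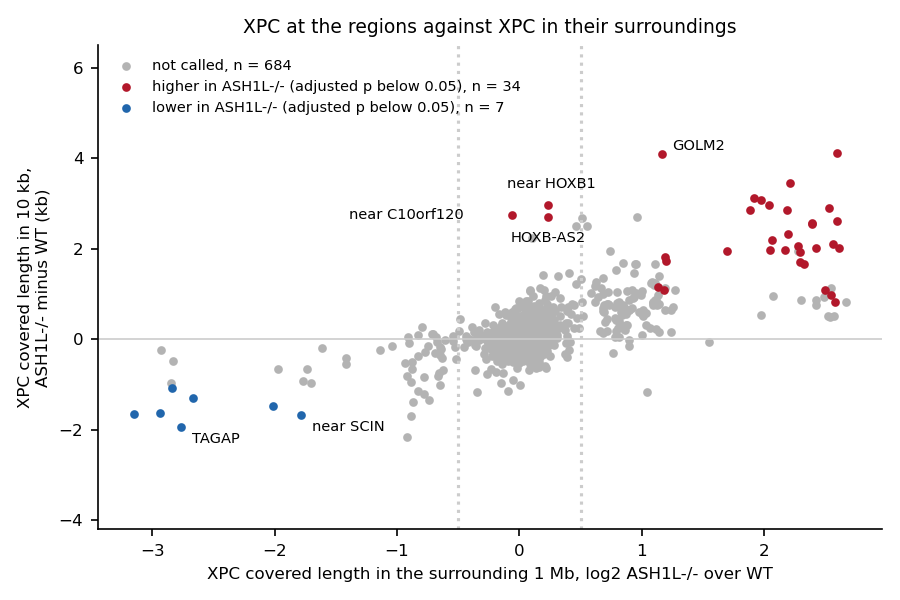
XPC covered length in the 10 kb around each region, ASH1L-/- minus WT (kb), against XPC covered length in the surrounding 1 Mb, log2 of ASH1L-/- over WT. Each point is 1 of the 725 regions tested, with 34 higher (red) and 7 lower (blue) in ASH1L-/- cells and 684 not called (grey), and the dotted lines stand at -0.5 and 0.5. All blue points lie left of -1.78 or at it, and all but 3 red points lie right of 0.5.

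The longest H3K4me3 regions did not carry a called XPC difference apart from the region near SCIN. At LINC02474 XPC covered 0 to 2.07 kb in ASH1L-/- lists, against 0 to 2.66 kb in WT lists, and the difference was 0.40 kb (adjusted p = 0.734, limma). At LRRC17 the difference was -0.41 kb, at HOXC5 0.53 kb and at PYDC2-AS1 0.03 kb (adjusted p = 0.860, 0.819 and 0.984). These windows were covered in both genotypes over overlapping ranges.

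After UV, XPC coverage at the regions in ASH1L-/- cells passed the threshold nowhere. At 1 h and at 3 h, 0 of 725 regions were called against no UV, and 0% of all windows were, with unadjusted p-values under 0.05 for 68 of the 725 at each time (9.38%, against 7.72% and 7.80% of all windows). The median difference was -0.23 kb at 1 h and -0.22 kb at 3 h over the 725, against -0.21 and -0.09 kb over all windows. ASH1L-/- XPC lists covered 291 to 380 Mb in all without UV, 242 to 311 Mb at 1 h and 165 to 464 Mb at 3 h. Scaled to an equal total per list, the medians were -0.068 and -0.117 kb over the 725, against -0.037 and -0.032 kb over all windows. Without the 2 shorter lists, the 3 h medians were -0.07 kb over the 725 and 0.09 kb over all windows. The part of list length in these changes was not tested further. At 1 h the smallest p-values were in ZNF415 (2.29 ± 0.641 kb), SHROOM3 (-4.56 ± 1.29 kb) and at KCNH1 (-2.79 ± 0.80 kb), each with an adjusted p of 0.361 (limma). At 3 h they were in GLIPR1 (-3.80 ± 0.875 kb), near PALS2 (1.88 ± 0.486 kb) and in NRCAM (-2.94 ± 0.828 kb), with adjusted p of 0.246, 0.337 and 0.419.

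Most XPC peaks were weak, and the calls depended on them. With only peaks of a -log10 p of at least 2, 235 of the regions could be tested and none was called, and with windows of 2 kb none of 683 was called.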

How the data were processed

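H3K4me3 and XPC chromatin immunoprecipitation sequencing of U2OS cells gave 18 and 19 peak lists, 1 per library. Per the labels and methods, the authors trimmed reads (Trim Galore 0.6.5), aligned them to hg38 without chromosome Y (BWA 0.7.17-r1188), removed duplicates and reads of low mapping quality (Picard, SAMtools 1.7, bedtools 2.29.2) and called peaks without pooling replicates (MACS2 2.2.7.1), narrow peaks against pooled input for H3K4me3 and broad peaks against pooled XPC-/- immunoprecipitates for XPC. The deposited values are peak starts and ends and, within H3K4me3 peaks, the summit offset (other), fold enrichment (a ratio over control), and -log10 p and -log10 q. XPC lists stop at 500000 peaks, and 2 were shorter. The peak lists hold no read depth, and the library totals the study states were not used here, so a missing peak means only that none was called.

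Covered length per region or window was fitted with limma 3.58.1 in R 4.3.3 (group means, trend and robust variance). A check on simulated data used normal noise. Covered lengths hold many zeros, so it cannot show how the p-values behave for them. P-values were adjusted by Benjamini and Hochberg over all regions or windows tested. Genes are from GENCODE 44. A region outside promoters and protein-coding gene bodies is called near the gene with the closest protein-coding start, at any distance. Named were the 15 longest regions, the 20 longest within 2 kb of a protein-coding start, the 5 with the highest fold enrichment, for each gene list up to 4 genes with a region at the promoter and 2 with one in the body, for each test the 5 largest changes that passed in each direction (or the 3 smallest p where none did), the 3 bins of 5 Mb with most regions, and ASH1L, XPC and the FACT genes. Others named were chosen after their values were seen, and some items are not reported here. The rule for the regions and the gene lists were chosen with earlier results of these data known. Alternatives were stricter or equal-sized peak sets, other merging and limits, scaling, filters, windows, a replicate block and leaving out lists.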

Additional observations from a re-analysis of the deposited data

Results flagged for a closer look

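Groups of at least 4 lists were examined for a value far from the others. Here this was XPC in WT cells without UV, in the 19 windows named in the text. In the window in GLIPR1, on chromosome 12, 1 WT list covered 1.89 kb (1.885 kb before rounding) and the next 0.156 kb. For normally distributed values, chance gives such a gap in about 1 of 20 groups, and 19 windows were examined. Covered lengths hold many zeros, so the rate for them is not known. The cause was not tested.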

How the results depend on the processing

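The number of regions, 736, was 691 with peaks of a -log10 q of at least 1.3, 640 with equal numbers of peaks per list, 700 with peaks within 200 bp merged and 531 with 1 Mb values within 0.5 of 0 (chosen after the data were seen). It was 100 with peaks enriched at least 5 times over input, 405 with no WT peak allowed, 1152 with at most 2 WT lists and 210 with all 3 ASH1L-/- lists required. Leaving out 1 ASH1L-/- list, which tightens the rule, gave 421 to 653, and leaving out 1 WT list, which loosens it, gave 781 to 889. Regions called for H3K4me3 were 2 at 1 h and 4 at 3 h. They were 1 and 4 with scaled lengths and 0 and 2 without a filter. Leaving out 1 list gave 0 to 1 and 1 to 7. The replicate block gave 0 and 2, and whether the numbers pair the lists is uncertain, since same-numbered lists deviated together in part only (correlations of -0.35 to 0.21, median 0.09, for H3K4me3 and of -0.30 to 0.35, median 0.06, for XPC, against medians of -0.02 and -0.03 for other numbers). Regions called for XPC between genotypes numbered 41, with 28 to 45 on leaving out 1 list, 46 with the block, 32 without the shorter lists, 0 in 2 kb windows, 0 with peaks of a -log10 p of at least 2 and 3 with 1 Mb values within 0.5 of 0. In that -log10 p setting TAGAP turned to 0.01 kb (0.0091 kb), and in 2 kb windows the 3 h change in GLIPR1 turned to 0.23 kb. The causes were not tested. XPC calls after UV stayed at 0 under all 25 alternatives at each time. All values are limited to called peaks, and absence of a peak is not absence of the mark.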
